A study of Mus musculus with 2 samples.

Results

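The genes described here are Cd1d1, Zbtb16, Slamf1, Slamf6, Slamf7, Cd48, Ly9, Cd84 and Sh2d1a, which serve the development of innate-like T cells. They were taken by name, and all 9 were found among 21924 protein-coding genes of the GENCODE annotation of mm10. Each was followed over its body and 20 kb on either side, called its domain here. DNase-seq, which maps accessible chromatin by where the enzyme DNase I cuts, had been run on the thymus of B6CASTF1/J mice, males aged 36 days. This strain is the first-generation cross of C57BL/6J and CAST/EiJ. The 2 libraries are 1 group with no treatment. They are labelled replicate 2 and replicate 1, and their sources are numbered as males 06 and 05, although both carry the same donor identifier. With 1 group of 2 libraries no test over samples was possible, so every value below describes a single library or sets the 2 libraries side by side.

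Natural killer T cells and other innate-like T cells arise in the thymus from thymocytes that recognise antigen-presenting molecules resembling MHC class I. CD1d, encoded by Cd1d1, presents lipids to natural killer T cells and is displayed by the thymocytes themselves. Receptors of the SLAM family mostly bind copies of themselves on a neighbouring cell. The tails of several of them recruit the adaptor SAP, encoded by Sh2d1a, which brings in the kinase Fyn. The transcription factor PLZF, encoded by Zbtb16, then directs the rapid effector programme of these cells.

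The libraries stood apart at the genes that define the labelled tissue. For scale, 60.0% of all protein-coding genes had a promoter peak in the replicate 2 library and 63.0% in the replicate 1 library. Of 16 thymocyte genes, 16 had a promoter peak in the replicate 2 library and 3 in the replicate 1 library (Lck, Satb1 and Tcf7), with summed promoter signals of 114 and 10.5. Of 11 pancreatic acinar genes, 4 and 11 had one, with summed signals of 12.3 and 61.5, and Ptf1a, Ctrb1, Cpa1 and Cpb1 were without a peak in the replicate 2 library. Genes of thymic epithelium did not divide the libraries in this way. Of 8, 4 and 5 had a promoter peak in the replicate 2 and replicate 1 libraries, with summed signals of 28.0 and 20.7. Ccl25, Prss16, Aire and Epcam were open in both libraries, and Krt8 was open in the replicate 1 library alone. Foxn1, Psmb11 and Krt5 were at 0 in both. The replicate 1 library thus went against its tissue label at the thymocyte and acinar genes. The counts at genes of thymic epithelium lay near the shares over all genes, so they cannot speak to the label. Results below are given for each library, or for the 2 libraries side by side. B cell genes had a promoter peak in 4 of 8 cases in each library (summed signals 13.9 and 9.14). Ebf1, Pax5, Cd22 and Blnk were open in both, and Cd79a, Cd79b and Ms4a1 were at 0 in both. Myeloid and dendritic cell genes had one in 3 and 1 of 8 (4.21 and 1.38, with Csf1r, Flt3, Itgam and Itgax at 0 in both), and natural killer cell genes in 2 and 0 of 5 (3.67 and 0, with Ncr1, Gzma and Klrb1c at 0 in both). In bulk tissue, fewer cells of a type and less open chromatin per cell cannot be told apart. What the makeup of the tissue adds to the results below was not tested.

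Sequences of 7 regions that carry the results are shown first. They were read from the C57BL/6J reference (GRCm38.p6, the assembly of mm10) along the strand of the named gene, and the CAST/EiJ allele was not analysed here. The first 3 are distal regions with a peak in both libraries. Distal means more than 1 kb from every annotated transcript start. Capitals mark bases inside a footprint, a short stretch protected from cutting, in both libraries. They lie in an intron of Zbtb16 (chr9:48740261-48740420, minus strand), downstream of Zbtb16 (chr9:48646341-48646500, minus strand) and downstream of Sh2d1a (chrX:42540821-42541000, plus strand).
Zbtb16 intronic: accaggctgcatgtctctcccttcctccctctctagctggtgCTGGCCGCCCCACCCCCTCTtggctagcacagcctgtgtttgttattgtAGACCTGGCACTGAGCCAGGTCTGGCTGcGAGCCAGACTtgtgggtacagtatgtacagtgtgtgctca
Zbtb16 downstream: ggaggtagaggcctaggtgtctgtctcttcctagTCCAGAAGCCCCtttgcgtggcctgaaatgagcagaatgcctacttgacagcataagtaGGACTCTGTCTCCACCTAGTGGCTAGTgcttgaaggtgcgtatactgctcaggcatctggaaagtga
Sh2d1a downstream: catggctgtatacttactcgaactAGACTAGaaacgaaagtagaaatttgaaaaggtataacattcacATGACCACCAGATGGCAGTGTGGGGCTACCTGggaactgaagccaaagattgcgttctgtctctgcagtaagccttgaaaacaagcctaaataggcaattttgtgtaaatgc

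The other 4 regions, on the plus strand of the SLAM cluster, had a peak in the replicate 2 library and none in the shorter list of the replicate 1 library. They are the strongest promoter peaks of Slamf6 (chr1:171919301-171919520), Slamf1 (chr1:171767041-171767260) and Cd84 (chr1:171840541-171840800), and the strongest distal peak of the cluster, in an intron of Cd48 (chr1:171699121-171699320). Capitals mark footprints of the replicate 2 library.
Slamf6 start: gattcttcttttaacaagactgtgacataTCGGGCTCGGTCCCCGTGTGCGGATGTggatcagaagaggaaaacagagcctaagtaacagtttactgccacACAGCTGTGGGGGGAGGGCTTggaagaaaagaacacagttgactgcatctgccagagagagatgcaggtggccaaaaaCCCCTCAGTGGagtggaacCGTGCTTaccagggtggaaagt
Slamf1 start: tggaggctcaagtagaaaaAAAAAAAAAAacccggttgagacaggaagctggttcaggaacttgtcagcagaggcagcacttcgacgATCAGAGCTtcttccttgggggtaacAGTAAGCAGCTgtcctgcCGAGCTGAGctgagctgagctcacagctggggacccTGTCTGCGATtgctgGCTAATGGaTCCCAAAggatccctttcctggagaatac
Cd84 start: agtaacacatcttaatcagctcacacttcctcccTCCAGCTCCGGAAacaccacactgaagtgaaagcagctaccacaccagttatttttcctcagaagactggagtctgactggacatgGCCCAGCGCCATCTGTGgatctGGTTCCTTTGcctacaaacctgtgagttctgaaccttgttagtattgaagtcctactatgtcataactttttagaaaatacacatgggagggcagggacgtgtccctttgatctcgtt
Cd48 intronic: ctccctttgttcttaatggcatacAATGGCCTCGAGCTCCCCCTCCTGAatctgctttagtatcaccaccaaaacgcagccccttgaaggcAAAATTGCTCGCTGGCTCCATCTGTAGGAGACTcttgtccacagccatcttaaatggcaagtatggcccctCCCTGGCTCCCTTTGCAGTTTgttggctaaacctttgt

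The first question was which of the 9 genes had an open promoter, meaning a peak within 1 kb of any of their transcript starts. In the replicate 2 library, 8 of 9 had one, against 60.0% of all protein-coding genes. In the replicate 1 library, 2 of 9 had one, against 63.0%. Cd1d1 and Zbtb16 were open in both libraries (2 of 9, against 56.6% of all genes). Ly9, Cd48, Slamf1, Cd84, Slamf6 and Sh2d1a were open in the replicate 2 library alone (6 of 9, against 3.38%), and none was open in the replicate 1 library alone (against 6.4%). Slamf7 was open in neither, as were 33.6% of all genes.

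**Figure D1:**
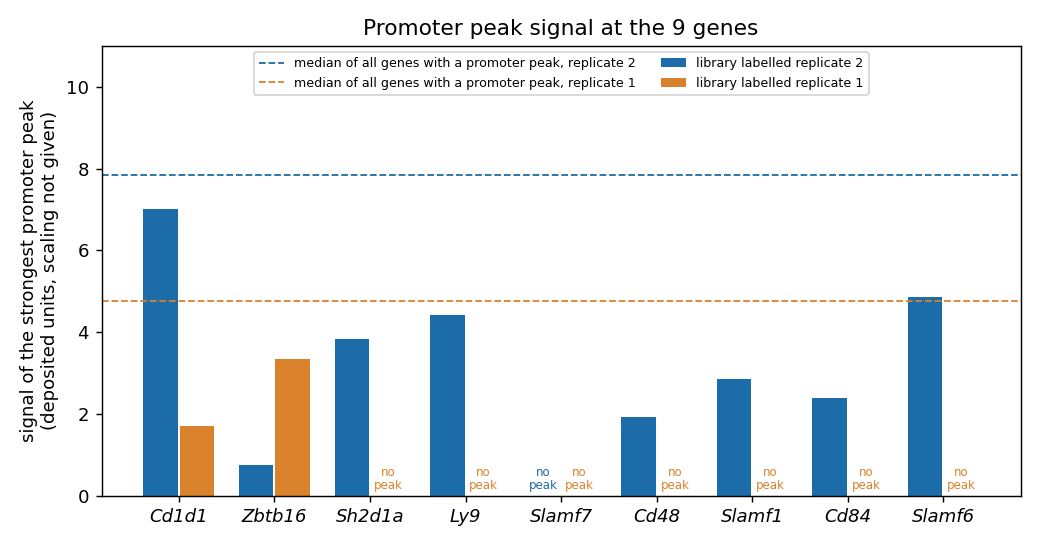
Bars give the signal of the strongest peak within 1 kb of a start of each gene, in the units of the deposited peak lists, for the replicate 2 and replicate 1 libraries. Dashed lines give the median over all genes with a promoter peak in that library (7.84 and 4.75). Zbtb16 is the gene whose bar is higher in the replicate 1 library.

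Of the antigen-presenting side, Cd1d1 (ENSMUSG00000028076.12, chromosome 3, 86995834 to 86999441) had the strongest promoter peak of the 9 genes in the replicate 2 library, with a signal of 7.0, and a signal of 1.69 in the replicate 1 library. Among all genes with a promoter peak these values stood at percentiles 45.4 and 16.3. The signal is the authors' own value per peak, and none of the sources used here gives its scaling. The ratio of replicate 2 to replicate 1 was 4.14 at this promoter, against a median of 1.33 over all peaks with a partner in the other library. Of all such peaks, 97.2% had a lower ratio. The peak lay in an exon in both libraries, and 2 of its 4 footprints in the replicate 2 library overlapped a footprint of the other. A further promoter peak lay 0.618 kb upstream of the gene's 5′ end in the replicate 2 library (0.886), and another in the gene in the replicate 1 library (0.659).

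Cd1d1 has a close copy, Cd1d2, which is annotated as a polymorphic pseudogene in the same domain. The Cd1d1 promoter peak of the replicate 2 library aligned with the copy at 315 of 336 bases (93.8% identity). At the start of Cd1d2 the replicate 2 library had 2 overlapping peaks, with signals of 1.42 and 1.28, and the replicate 1 library had none. No source used here says how reads that fit both copies were placed, so the division of signal between them is uncertain.

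Zbtb16 (ENSMUSG00000066687.5, chromosome 9, 48654297 to 48836222) was the exception to the order of the libraries. Its strongest promoter peak had a signal of 0.747 in the replicate 2 library and of 3.35 in the replicate 1 library, the 4.57th and the 32.6th percentile of open promoters. Each library had 3 promoter peaks there. The 3 of the replicate 2 library were 256 bp wide or less, and their signals were 0.501 to 0.747. Those of the replicate 1 library were 260 to 620 bp wide, with signals of 1.45 to 3.35. The ratio of replicate 2 to replicate 1 at the 3 peaks of replicate 2 was 0.150 to 0.223, and 1.55% of all shared peaks or fewer had a ratio below these.

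Among the receptors of the SLAM family, 6 lie in 365 kb of chromosome 1 (171588624 to 171953170). Slamf6 (ENSMUSG00000015314.10), which encodes Ly108, had a promoter signal of 4.87 in the replicate 2 library. Ly9 (ENSMUSG00000004707.14), which encodes CD229, had 4.42 and Slamf1 (ENSMUSG00000015316.11), which encodes CD150, had 2.86. Lower in that library were Cd84 (ENSMUSG00000038147.13) with 2.38 and Cd48 (ENSMUSG00000015355.13), the ligand of the receptor 2B4, with 1.92. Slamf7 (ENSMUSG00000038179.13), which encodes CRACC, had no promoter peak, and no interval within 1 kb of its starts was listed in either FDR table. None of the 6 had a promoter peak in the shorter list of the replicate 1 library. All 5 open promoters lay below the median of open promoters, at the 14.8th percentile for Cd48 to the 32.7th for Slamf6. With a single library behind each value, no spread can be set against the order of these signals.

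The strongest Slamf6 promoter peak did not lie at the gene's 5′ end but 1.90 kb inside the gene, at a further start of Slamf6 and at the start of the antisense gene Gm37065, and DNase-seq cannot assign it to either. At the 5′ end itself the replicate 2 library had 2 peaks, with signals of 1.56 and 2.58, and a further one lay 2.55 kb inside the gene (1.36). The strongest Cd84 promoter peak likewise lay 974 bp inside the gene, at a group of later starts. At Cd48, 3 promoter peaks had signals of 1.14 to 1.92, and the upstream 2 were nearer to the start of the noncoding gene A630035G10Rik, which runs the other way.

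Sh2d1a (ENSMUSG00000005696.11, chromosome X, 42502453 to 42529330), which encodes SAP, had 2 promoter peaks in the replicate 2 library, with signals of 3.82 and 1.90, and none in the replicate 1 library. The one at the 5′ end held 3 footprints. Its signal stood at the 26.7th percentile of open promoters.

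The FDR tables list intervals with an FDR under 0.05. Per the deposited notes they were made from the same alignments as the peaks, so they are not separate support for them. An FDR of at most 0.001 within 1 kb of a start was listed at 8 of 9 genes in the replicate 2 library (against 60.7% of all genes) and at 2 of 9 in the replicate 1 library (against 63.8%). No interval was listed there at 1 of 9 in the replicate 2 library (against 34.4%) and at 4 of 9 in the replicate 1 library (against 31.6%). The 6 genes open in the replicate 2 library alone were picked by their peaks. A low FDR there and a higher or absent one in the other library largely follow from that choice. Within 1 kb of their starts the lowest FDR in the replicate 2 library was between 4.34e-37 at Ly9 and 3.85e-12 at Cd48. In the replicate 1 library it was 0.0485 at Ly9, 0.0292 at Cd48 and 0.00221 at Cd84, and no interval was listed at Slamf1, Slamf6 and Sh2d1a. These 3 of 9 genes had a promoter peak in the replicate 2 library and no listed interval at a start in the other, as did 1.85% of all genes. The longer peak list of the replicate 1 library held weak promoter peaks at Cd48 (0.196) and Cd84 (0.235), which raised its count of open promoters to 4 of 9, against 67.2% of all genes. With the longer list of the replicate 2 library the count was 8 of 9, against 64.6%.

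Over whole domains, more base pairs had an FDR of at most 0.001 in the replicate 2 library at 8 of 9 genes, against 22.7% of all genes. More had one in the replicate 1 library at 1 of 9, against 61.9%. The domains are not all separate, since those of Ly9 and Slamf7, Slamf7 and Cd48, Slamf1 and Cd84, and Cd84 and Slamf6 overlap. They numbered 4041 at Slamf6 in the replicate 2 library and 0 in the replicate 1 library, where its 75.7 kb domain held no listed interval at all. No other of the 9 domains was without one in either library, against 15.3% of all domains in the replicate 2 library. Of all genes, 10.9% had no listed interval in the domain in the replicate 1 library, but 0.151% combined this with a promoter peak in the other library. This combination was taken from Slamf6 itself. Slamf1 had 2594 and 294 bp, Cd48 had 1705 and 0, and Cd84 had 865 and 0. At Sh2d1a the libraries differed less, with 1436 and 1095 bp. Zbtb16 alone had less in the replicate 2 library, with 1264 bp against 6310 bp in the replicate 1 library. Over the genome the tables held 23910696 and 33470484 bp at this level.

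**Figure D2:**
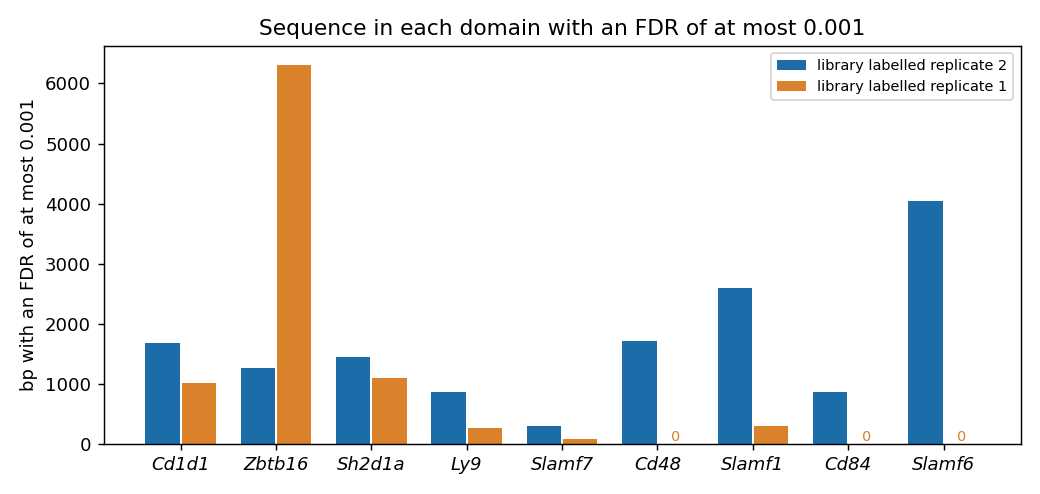
Bars give the base pairs of each domain listed at an FDR of 0.001 or less for the replicate 2 and replicate 1 libraries. Slamf6, Cd48 and Cd84 are at 0 in the replicate 1 library, and Zbtb16 is highest there with 6310 bp.

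The second question was where the distal peaks lay. The 9 domains together held 30 distal peaks in the replicate 2 library and 21 in the replicate 1 library. Without the Zbtb16 domain, a division chosen after the values were seen, the counts were 25 and 6. The median per gene was 2 in the replicate 2 library, against 1 over all genes, and 1 in the replicate 1 library, against 2 over all genes. Slamf6, Slamf1, Sh2d1a, Cd48 and Cd84 had more distal peaks in the replicate 2 library (5 of 9, against 18.2% of all genes). Zbtb16 had more in the replicate 1 library (1 of 9, against 41.1%), and Cd1d1, Ly9 and Slamf7 had as many in both (3 of 9, against 40.7%).

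**Figure D3:**
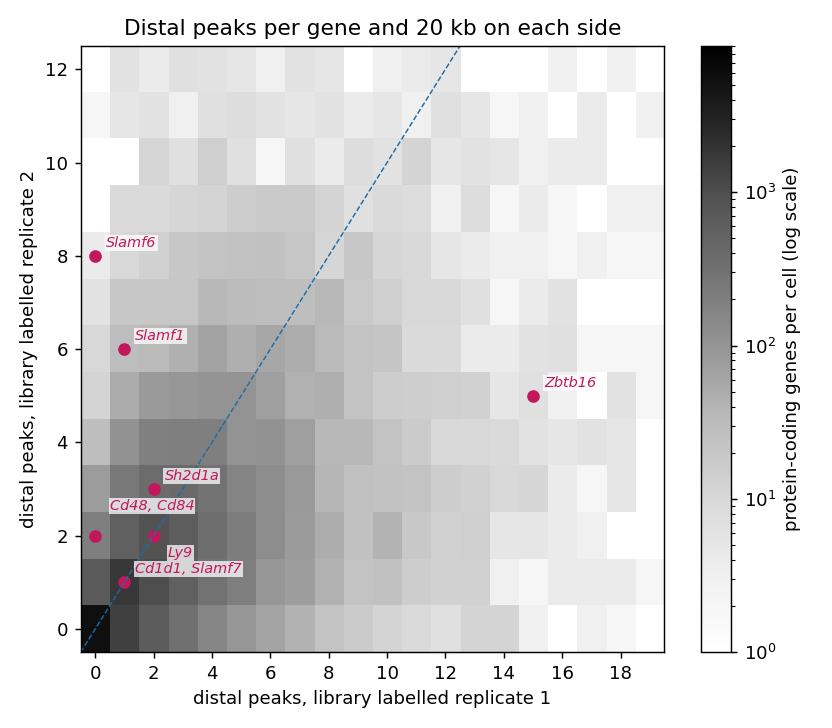
Each point is a gene of the 9, placed by its distal peaks in the replicate 2 library (y axis) and the replicate 1 library (x axis), over a count of protein-coding genes per cell in grey (log scale, 390 genes lie outside the range). The dashed line marks equal counts. Slamf6 (8 and 0) and Slamf1 (6 and 1) stand above it, and Zbtb16 (5 and 15) stands far below.

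Slamf6 had 8 distal peaks in the replicate 2 library and 0 in the replicate 1 library. Of all genes, 0.0684% had at least 8 and none, a cut taken from the counts of Slamf6 itself and not scaled to domain length. Its strongest ones lay in the first part of the gene, 3.65 kb from the 5′ end with a signal of 2.25, and downstream of the gene, 44.4 kb from the 5′ end with 1.52. Slamf1 had 6 and 1. Its strongest lay 15.6, 10.1 and 21.7 kb inside the gene, with signals of 2.30, 2.18 and 2.12 in the replicate 2 library, all at or above the 70.6th percentile of distal peaks there. The single Slamf1 peak of the replicate 1 library, 48.8 kb from the 5′ end, had a signal of 0.361.

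Cd48 and Cd84 had 2 distal peaks each in the replicate 2 library and 0 in the replicate 1 library. The Cd48 intronic peak, 17.2 kb inside the gene, had a signal of 5.24. This was 2.73 times that of the strongest Cd48 promoter peak and stood at the 93.6th percentile of distal peaks. The stronger Cd84 peak, 5.54 kb inside the gene, had 2.57, also above the promoter peak of that gene. Ly9 had 2 in each library at different places. Those of the replicate 2 library lay 3.59 and 2.82 kb upstream of the 5′ end (1.79 and 0.747). Those of the replicate 1 library lay 6.72 kb upstream (0.321) and downstream of Ly9 within the domain (1.01), nearest to a start of Cd244a. The 6.72 kb peak also counts for Slamf7, whose domain overlaps that of Ly9. Slamf7 had 1 intronic peak in the replicate 2 library, with a signal of 1.29.

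**Figure D4:**
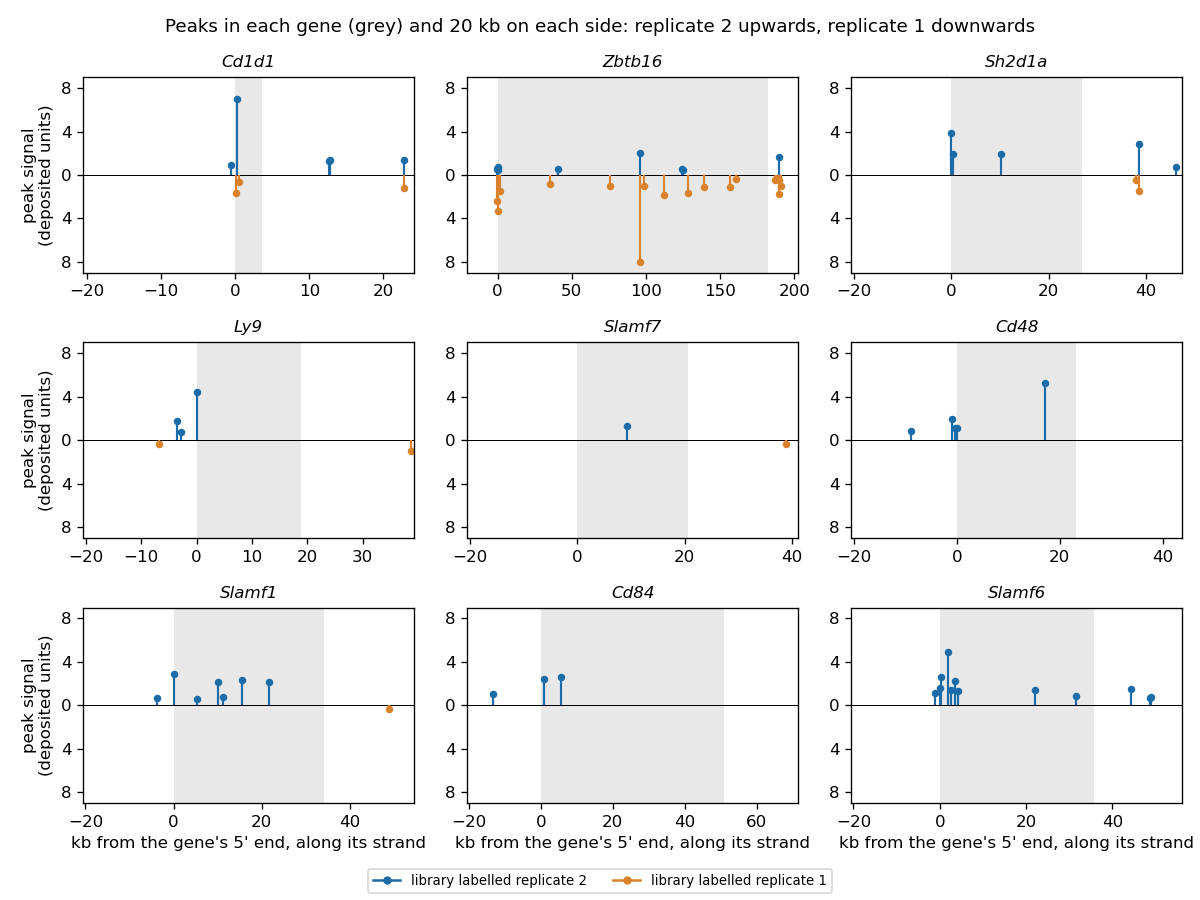
Each panel shows a gene (grey) with 20 kb on either side, with the distance from its 5′ end in kb on the x axis and the signal of each peak on the y axis, upwards for the replicate 2 library and downwards for the replicate 1 library. At the 6 SLAM receptor genes 31 peaks point up and 3 point down, 1 of them drawn at both Ly9 and Slamf7, and none of the 31 overlaps one of the 3.

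At Zbtb16 the replicate 1 library had 15 distal peaks and the replicate 2 library had 5. At least 15, a cut taken from Zbtb16 itself, were found at 1.84% of all genes in the replicate 1 library. Per 100 kb of its 222 kb domain this came to 2.25 in the replicate 2 library and 6.76 in the replicate 1 library, against medians over all genes of 1.60 and 2.16. The strongest was the intronic region 95.9 kb from the 5′ end whose sequence is shown above. It had a signal of 2.03 in the replicate 2 library and of 8.01 in the replicate 1 library, the 69.0th and the 99.6th percentile of distal peaks. Of all shared peaks, 2.15% had a lower ratio of replicate 2 to replicate 1. Further intronic peaks of the replicate 1 library alone had signals of 1.81, 1.65 and 1.14 at 112, 128 and 157 kb from the 5′ end. The 3 intronic peaks of the replicate 2 library alone had signals of 0.493 to 0.547. Pancreatic acinar genes also had more distal peaks in the replicate 1 library, with medians of 1 and 18 in the replicate 2 and replicate 1 libraries, and thymocyte genes had fewer, with 7.5 and 2. Their part in the Zbtb16 peaks was not tested.

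Further distal regions had a peak in both libraries. Downstream of Sh2d1a, 38.5 kb from its 5′ end, both libraries had a peak with the same boundaries, with signals of 2.81 and 1.49 in the replicate 2 and replicate 1 libraries. The region downstream of Zbtb16, 190 kb from its 5′ end, had 1.68 and 1.71. Their ratios of replicate 2 to replicate 1 were 1.89 and 0.983, beside the median of 1.33 over shared peaks.

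In all, 49 peaks lay in the 9 domains in the replicate 2 library, of which 8 (16.3%, 95% Wilson interval 8.51 to 29.0) were shared with the other library, against 60.6% of all peaks. Of the 26 peaks of the replicate 1 library, 7 (26.9%, 95% Wilson interval 13.7 to 46.1) were, against 43.1%. The intervals cover counting of peaks only and measure no spread between animals. They treat peaks as independent, although 31 of the 49 lay in the SLAM cluster and 18 of the 26 at Zbtb16. Among distal peaks 4 of 30 and 4 of 21 were shared, against 49.1% and 32.3% of all distal peaks.

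The third question was where footprints lay. Whole within the peaks of the 9 domains were 120 footprints in the replicate 2 library and 47 in the replicate 1 library. This came to 12.7 and 8.52 per kb of peak, against 13.6 and 11.5 per kb over all peaks. Of these footprints 14 (11.7%) and 13 (27.7%) overlapped a footprint of the other library, against 46.0% and 39.9% of all footprints within peaks. The 14 all lay in the 8 peaks of the replicate 2 library that were shared with the other. These shares thus also carry the low sharing of peaks, and do not show how well footprints agree inside shared peaks. Slamf6 had 54 footprints in its domain in the replicate 2 library and 0 in the replicate 1 library, and Slamf1 had 37 and 3. Zbtb16 had 21 and 49. The Slamf1 promoter peak held 7 footprints, the most of any peak in the 9 domains.

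**Figure D5:**
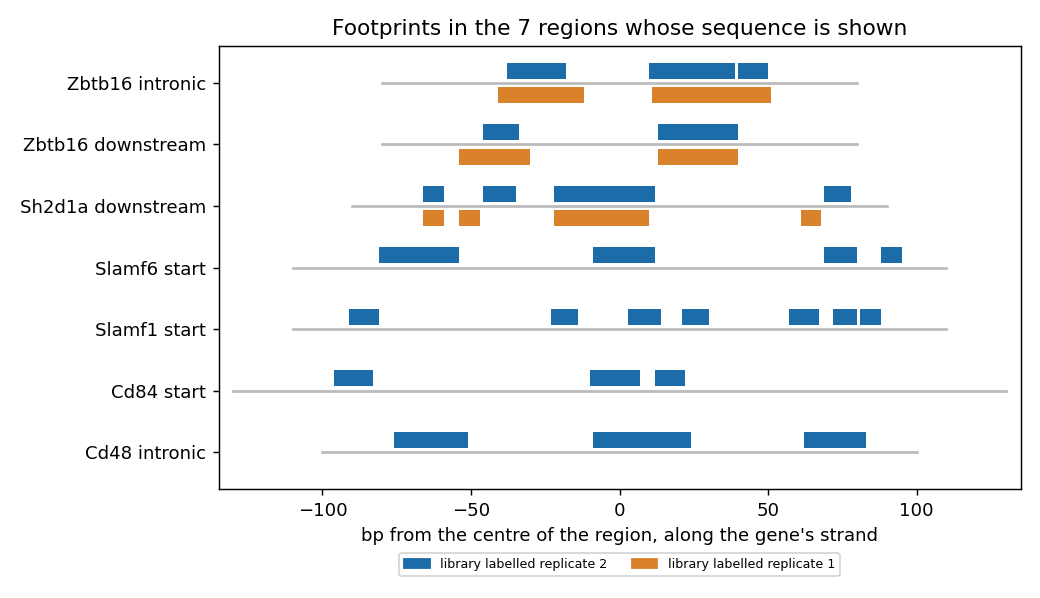
Boxes mark footprints in the 7 regions whose sequences are given, by distance in bp from the centre of the region, above the line for the replicate 2 library and below it for the replicate 1 library. In the upper 3 regions most footprints of the libraries overlap, except for 2 of 4 of each library downstream of Sh2d1a, and in the lower 4 all belong to the replicate 2 library.

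In the 3 printed distal regions with a peak in both libraries, stretches covered by footprints of both libraries are shown in capitals above. They came to 58 of 160 bp in the Zbtb16 intronic region, 39 of 160 bp downstream of Zbtb16 and 39 of 180 bp downstream of Sh2d1a. The long capital stretch downstream of Sh2d1a holds the looser pattern searched for the insulator protein CTCF, found at any place in 22.5% of peak windows of that length. The 12-letter CTCF consensus matched there at 12 letters, downstream of Zbtb16 at 11 and in the Zbtb16 intronic region at 9. Windows of the same length at all peaks of 1 library (replicate 1 for the Zbtb16 regions, replicate 2 for that of Sh2d1a) matched as well or better in 8.29%, 19.2% and 80.0% of cases, on either strand. A match to 9 letters was thus common among peaks. In the Zbtb16 intronic region the first capital stretch holds GGGCGG (SP and KLF factors, read on the other strand). It was found at any place in 17.5% of such windows, in or out of a footprint.

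The pattern of E proteins (CAGNTG), the factors that direct early thymocyte development, touched a footprint in all 4 printed regions of the SLAM cluster. The pattern was also common elsewhere, in 49.1% to 56.3% of peak windows of these lengths. These window shares count it at any place, whether or not it touched a footprint. At the Slamf6 start it stood 5 times on either strand, with its symmetric copy counted on both, and it was found in 51.7% of peak windows of that length. The capital stretch there also held GTGGGNG (EGR factors), found at any place in 27.5%. The Cd84 start had TGTGGT, the pattern of RUNX factors, at 2 places outside the capitals, against 19.9% of windows with any.

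Of 18 patterns searched, those of 4 factor groups are given here. A pattern touched a footprint when it overlapped it by at least 1 bp, and it could reach up to 5 bp beyond either end. Over the 120 footprints of the replicate 2 library, CAGNTG touched 12 (10%), against 6.65% of all 176193 footprints within peaks. TGTGGT touched 6 (5%), against 2.03%, 1 each at Cd84, Ly9, Sh2d1a, Slamf1, Slamf6 and Slamf7. GGAAG (ETS factors) touched 2 (1.67%), against 8.39%, and GGGCGG touched 3 (2.5%), against 10%. In the replicate 1 library, CAGNTG touched 5 of 47 footprints (10.6%, against 9.07% of all), and TGTGGT touched 1 (2.13%, against 1.21%). GGAAG touched 3 there (6.38%, against 6.38%) and GGGCGG touched 3 (6.38%, against 7.86%). All of these were at Zbtb16, as were 4 of the 5 touched by CAGNTG. Zbtb16 held 33 of these 47 footprints but 13 of the 120 in the replicate 2 library. The shares of the 2 libraries thus rest on different genes, and whether the low GGAAG share recurs cannot be told. These counts were searched on both strands, GGAAG shares its first letters with the NFAT pattern GGAAA, and the counts are too small to set the genes apart from others.

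A further 13 genes were listed for the SLAM and SAP pathway, though Cd274 and Icosl among them belong to neither. Of the 13, 8 had a promoter peak in the replicate 2 library (against 60.0% of all genes) and 6 in the replicate 1 library (against 63.0%). Their summed promoter signals were 48.7 and 16.1. Those with the highest mean signal were Fyn, the kinase recruited by SAP, with 14.1 and 4.86, the phosphatase gene Ptpn6 with 7.09 and 3.72, Cd274, which encodes PD-L1, with 7.82 and 1.91, and the phosphatase gene Ptpn11 with 5.30 and 3.32. Inpp5d and Cd2 were open in the replicate 2 library alone (2 of 13, against 3.38% of all genes). Cd2, which is also among the thymocyte genes counted above, had 13 distal peaks there and 3 in the replicate 1 library. Prkcq, the gene of a T cell kinase, had promoter signals of 4.94 and 0.282 and distal counts of 12 and 1. The remaining SLAM receptor genes Cd244a, Slamf8 and Slamf9 and the SAP-related adaptor genes Sh2d1b1 and Sh2d1b2 had no promoter peak in either library. These were 5 of 13, against 33.6% of all genes.

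Of 29 further genes of innate-like T cells, 24 had a promoter peak in the replicate 2 library (against 60.0% of all genes). In the replicate 1 library 20 had one (against 63.0%). Hivep3 had signals of 39.2 and 14.5, Egr1 of 20.4 and 7.86 and Id2 of 13.2 and 7.88. The regulators Bcl11b, Eomes and Tbx21 and the receptor gene Il2rb were open in the replicate 2 library alone (4 of 29, against 3.38% of all genes). Bcl11b and Tcf7 of this list are also among the thymocyte genes counted above. The effector genes Ifng and Il4 and the surface and granule genes Klrb1c, Cxcr6 and Nkg7 were open in neither library (5 of 29, against 33.6%). The genes most like the median of the 9, by the distance of their rank percentiles in promoter signal and distal count over the 2 libraries, were Tlr12, Gm16181, Bend6, Il9r and Milr1, each with 2 distal peaks in the replicate 2 library, 1 in the replicate 1 library and no promoter peak there.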

How the data were processed

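DNase-seq was analysed in 2 libraries of thymus tissue, 1 group, from peak, footprint and FDR lists. Per the labels the assembly is mm10, and no deposited peak ran past a chromosome end of GRCm38.p6. The deposited peak lists give a signal per peak, whose scaling by the authors none of the sources used here gives. The deposited FDR tables list a p-value-like false discovery rate per interval (highest 0.0500 and 0.0499 in the replicate 2 and replicate 1 libraries). The deposited footprint lists hold a score of 0.01 in every row, which ranks nothing. Per the deposited notes each list was made from its own library's filtered alignment. Aligner and callers are not stated in these sources, and depth is unknown.

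The shorter peak list of each library (60644 and 85367 peaks) was the main one. Python 3.11.15, pandas 2.3.3 and GENCODE vM21 were used. Promoters extended 1 kb to either side of 132666 distinct transcript starts, a promoter peak overlapped one, and a distal peak had its midpoint in the domain and lay outside all promoters. Peaks were shared when they overlapped by 1 bp. Overlap searches were tested on simulated data. No test was run.

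All 9 genes are named, with every promoter peak, the strongest distal peaks and most regions with a peak in both libraries. Further genes are the up to 4 of each list with the highest mean promoter signal, and some with a peak in 1 or neither library, chosen after their values were seen. The 9 genes, the lists, the motifs and the markers were chosen with earlier results of these data known. The RefSeq promoter table (GRCm38.p6) held 5 of the 9 genes and was not used further. Some genes and a region of these lists are not reported here.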

Additional observations from a re-analysis of the deposited data

How the results depend on the processing

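With 2500 bp or 500 bp promoter windows or the gene 5′ end alone, open promoters stayed at 8 of 9 in the replicate 2 library and at 2 of 9 in the other and in both. The count open in both libraries was 4 with the longer lists and 1 with the stronger 50% of peaks by signal. When a library was left out, only the count of the remaining library was left, 2 or 8 (8 without the replicate 1 library). These are not counts open in both, but they are included in the alternatives counted below. The replicate 1 library alone had 4 with its longer list.

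Distal peaks numbered 54 with the longer list and 10 among the stronger peaks in the replicate 2 library. In the replicate 1 library they numbered 32 and 5, with flanks of 5 kb 9, and without the Zbtb16 domain 6. The last alternative was added after seeing the data. With an overlap of 50% of each peak, 8.16% of the peaks of the replicate 2 library were shared. Of 35 alternatives, 24 left the value within 1.5 times its size or within its interval. The cause of the other 11 was not tested beyond their construction.

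No paired analysis was possible because the 2 libraries form 1 group. With depth unknown, a gene without a peak had none detected, which does not show closed chromatin.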
